A study of Mus musculus with 6 samples.

Results

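Immediate early genes are the genes a cell transcribes first after a stimulus, and 10 of them were followed in the hearts of NBCe1-B/C-knockout mice: *Fos*, *Fosb*, *Jun*, *Junb*, *Egr1*, *Atf3*, *Ier2*, *Ier3*, *Nr4a1* and *Dusp1*. Their rows were found by name, through their Ensembl identifiers; the family was picked with earlier results of these data known. All 10 were among the 16018 genes of the deposited table, and all 10 passed the minimum mean of 10 normalized counts, as did 16016 genes in all. RNAseq was performed on hearts of 3 female mice that lack the B and C variants of the sodium bicarbonate cotransporter NBCe1 (KOb/c) and 3 female wild-type (WT) mice, all between 4 and 5 weeks of age. Both genotypes came from crosses of heterozygous parents on a C57BL/6J background. The knockout is present from conception in every tissue and is not driven by a cardiac promoter, and the mice received no treatment that the labels name. The labels give the tissue as heart, without naming the chamber. A normalized count is the number of read pairs assigned to a gene, divided by a scaling factor for the library. In bulk tissue, fewer cells of a type and less RNA per cell cannot be told apart.

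Immediate early genes are transcribed within minutes of growth factor, hormone, calcium or stretch signals and need no new protein for this, since the factors that switch them on, such as CREB, serum response factor and its partners, are already bound or ready in the cell. Their RNAs are short-lived, partly through AU-rich elements in the 3′ untranslated region, so their level follows a stimulus up and down. Many encode transcription factors: Fos, Jun and ATF proteins pair through leucine zippers and bind DNA as AP-1 or related dimers, EGR1 is a zinc finger protein, and NR4A1 is an orphan nuclear receptor. DUSP1 is a phosphatase that switches off the MAP kinases that induced it. In the heart they are known for their response to stretch, pressure load, adrenergic agonists and ischaemia.

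The promoters of *Fos*, *Nr4a1*, *Dusp1* and *Atf3* are shown because these genes include those that varied most between libraries and those that held the most copies of the core of the cyclic AMP response element, the sequence that CREB and ATF proteins bind. Each window runs from 250 bases before to 50 bases after the RefSeq start of the gene in GRCm38.p6 and is written 5′ to 3′ on the strand of the gene. Capitals mark the core TGACG on either strand, so that it reads CGTCA where it lies on the opposite strand. The windows are chr12:85473640-85473939 (plus strand) for *Fos*, chr15:101266596-101266895 (plus strand) for *Nr4a1*, chr17:26508423-26508722 (minus strand) for *Dusp1* and chr1:191183284-191183583 (minus strand) for *Atf3*.
Fos: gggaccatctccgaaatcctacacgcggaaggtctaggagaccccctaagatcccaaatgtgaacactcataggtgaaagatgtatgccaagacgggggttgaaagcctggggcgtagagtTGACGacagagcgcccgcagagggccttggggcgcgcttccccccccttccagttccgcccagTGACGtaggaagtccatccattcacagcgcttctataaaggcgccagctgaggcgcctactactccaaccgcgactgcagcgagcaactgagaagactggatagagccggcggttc
Nr4a1: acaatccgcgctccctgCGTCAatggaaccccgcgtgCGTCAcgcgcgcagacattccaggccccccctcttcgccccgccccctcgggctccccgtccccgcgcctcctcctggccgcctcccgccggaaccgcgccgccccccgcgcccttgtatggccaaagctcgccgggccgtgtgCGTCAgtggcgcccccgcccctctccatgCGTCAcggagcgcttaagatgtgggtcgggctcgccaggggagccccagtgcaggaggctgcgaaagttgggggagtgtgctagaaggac
Dusp1: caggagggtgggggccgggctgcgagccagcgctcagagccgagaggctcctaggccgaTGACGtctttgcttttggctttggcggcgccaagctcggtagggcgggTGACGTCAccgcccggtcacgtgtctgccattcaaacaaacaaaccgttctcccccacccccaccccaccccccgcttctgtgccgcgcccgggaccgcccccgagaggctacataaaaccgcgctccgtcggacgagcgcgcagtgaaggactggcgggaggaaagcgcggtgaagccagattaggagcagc
Atf3: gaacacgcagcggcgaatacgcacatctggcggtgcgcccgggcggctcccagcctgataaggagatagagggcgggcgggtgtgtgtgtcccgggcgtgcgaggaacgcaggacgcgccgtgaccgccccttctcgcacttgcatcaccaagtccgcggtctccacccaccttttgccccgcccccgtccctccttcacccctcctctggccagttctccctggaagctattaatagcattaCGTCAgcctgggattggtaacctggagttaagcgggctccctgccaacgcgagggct

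Promoter windows were matched for 8 of the 10 genes, *Ier2* and *Egr1* being the other two. The core TGACG was found on either strand in 6 of these 8 windows, against 20.8% of the 32851 RefSeq promoters of the same length. *Nr4a1* held 4 copies, *Dusp1* 3, *Fos* 2 and *Atf3*, *Fosb* and *Junb* 1 each. The full element TGACGTCA, which contains the core on both strands, was found in *Dusp1* and in 1.79% of all promoters. The EGR site GCGNGGGCG was found in *Fosb* and *Nr4a1* (5.55% of all promoters), and the TATA box letters TATAAA in *Fos* and *Junb* (13.6%). The AP-1 letters TGANTCA were found in 0 of the 8 windows (7.81% of all promoters) and so was the CArG box of serum response factor (1.63%). Sites more than 250 bases before the start were not searched, nor were any of *Egr1* or *Ier2*, so these counts do not show that the genes lack such sites. Matches are letters in a window and say nothing of binding.

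Reads on genes numbered 42619258 to 49100802 in the KOb/c libraries and 41364857 to 42037397 in the WT libraries. The targeted gene, *Slc4a4* (chr5:88886818-89239653), was listed at 264, 944.8 and 268.7 normalized counts in the libraries labelled KOb/c replicates 1, 2 and 3, while the WT libraries, in the order of their replicate numbers, had 675.1, 822.2 and 788.8. KOb/c replicate 2 thus went against its label at this gene, and the limma comparison of each immediate early gene was also made without it. The deposited counts are summed over the gene and do not separate the NBCe1 variants. The summed normalized count of 5 cardiomyocyte marker genes was 2226758 to 2499191 in KOb/c and 1861461 to 1984266 in WT hearts, so the tissue had the markers of its label. Markers of other cells varied between libraries: 4 atrial marker genes summed to 15430, 73940 and 88185 in KOb/c and 24703, 87282 and 109119 in WT replicates 1, 2 and 3.

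The test found a difference between the libraries labelled KOb/c and WT for 0 of the 10 immediate early genes. By limma with Benjamini-Hochberg adjustment over all 16016 genes, 0 of the 10 had an adjusted p under 0.05 (0% of all genes), and their adjusted p-values ran from 0.366 to 0.899. At an unadjusted p under 0.05, limma, edgeR and DESeq2 each gave 0 of the 10, against 23.5%, 24% and 21.9% of all genes. With adjustment, edgeR gave 0 of the 10 (0% of all genes) and DESeq2 0 of the 10 (9.91% of all genes). With its defaults DESeq2 gave no adjusted p for *Fosb*, which thus could not pass. Without independent filtering or outlier removal it again passed 0 of the 10 (1405 of 16016 genes). The 3 KOb/c libraries and the 3 WT libraries overlapped for all 10 genes, whereas they did not overlap for 30.2% of all genes. The fitted value was higher in KOb/c for 4 of the genes and lower for 6, with a median log2 fold change of -0.09 against -0.004 over all genes. Exact two-sided permutation tests of the single genes gave p from 0.2 to 0.9, and no design of 3 against 3 mice can go below 0.1. The intervals were wide: their 95% bounds on the log2 fold change reached from -1.36 to 2.54 for *Fos* and, at the narrowest, from -0.70 to 0.22 for *Ier2*.

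**Figure D1:**
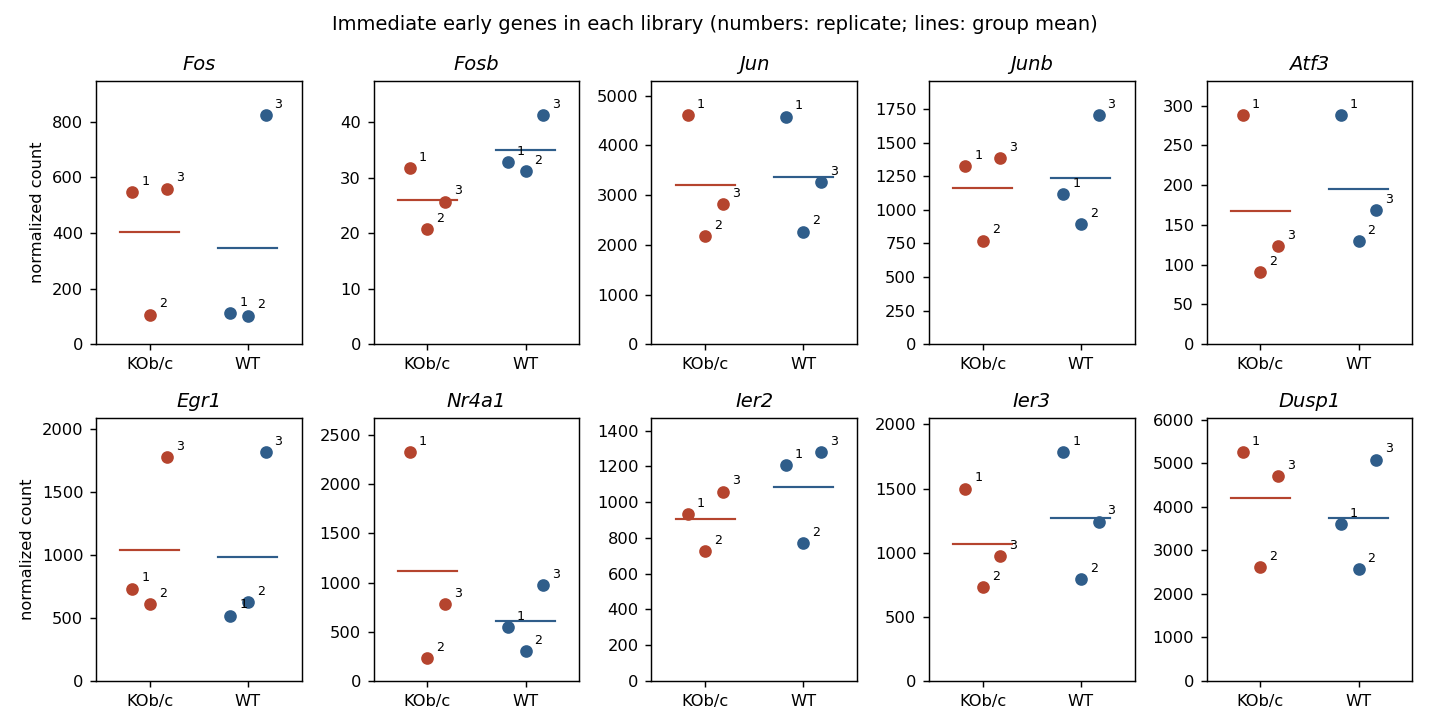
Normalized counts (vertical axis, linear and starting at 0, with a scale of its own for each gene) of the 10 immediate early genes in 3 KOb/c (red) and 3 WT (blue) hearts; each point is 1 library with its replicate number, and each line is the mean of a group. KOb/c and WT points overlap in all 10 panels, and replicate 2 of KOb/c is lowest for 7 genes.

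The Fos family supplies partners that bind DNA only as dimers with Jun proteins. *Fos* (ENSMUSG00000021250, chr12:85473890-85477273) was listed at 546, 106 and 560 normalized counts in KOb/c replicates 1, 2 and 3 and at 113, 103 and 823 in WT replicates 1, 2 and 3. Its libraries fell into 3 high ones, KOb/c replicates 1 and 3 and WT replicate 3, and 3 low ones, so that libraries of both labels were high and low. The low library labelled KOb/c is the one with *Slc4a4* at the WT level. The fitted difference was 0.59 on the log2 scale, with a standard error of 0.86 (adjusted p = 0.721 by limma). DESeq2, which works on the mean of the counts and not of their logarithms, gave 0.22 (adjusted p = 0.927). *Fosb* (ENSMUSG00000003545, chr7:19302696-19310051), a related partner known for its stable splice form in nerve cells, was far scarcer, at 31.8, 20.7 and 25.7 in KOb/c and 32.8, 31.2 and 41.2 in WT replicates 1, 2 and 3. KOb/c replicate 1 alone lay inside the WT range, and the other KOb/c libraries lay below it. The fitted difference was -0.43 on the log2 scale (95% confidence interval -1.03 to 0.18, adjusted p = 0.366 by limma), and as few as 20 reads stood behind a value, a counting error of 22.4% at that library.

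The Jun proteins pair with Fos proteins or with each other. *Jun* (ENSMUSG00000052684, chr4:95049034-95052222) was listed at 4604, 2181 and 2818 in KOb/c and 4580, 2267 and 3263 in WT replicates 1, 2 and 3. Replicate 1 of each genotype was the highest of its group and replicate 2 the lowest, at nearly the same counts in both genotypes. The log2 fold change was -0.09 (95% confidence interval -0.76 to 0.59, adjusted p = 0.894 by limma). *Junb* (ENSMUSG00000052837, chr8:84974484-84978718), which often acts against Jun on shared targets, was listed at 1323, 770 and 1383 in KOb/c and 1116, 894 and 1702 in WT replicates 1, 2 and 3. WT replicate 3 was the highest of the 6 and KOb/c replicate 2 the lowest, and the log2 fold change was -0.09 (95% confidence interval -0.70 to 0.52, adjusted p = 0.876 by limma). The exons of *Jun* share 232 bases with its antisense gene *Junos*, and those of *Junb* share 173 bases with *Prdx2* on the opposite strand, as *Dusp1* shares 11 bases with *Ergic1*. The treatment of strand in the counting is not given in the sources used here, so reads in these overlaps cannot be assigned with certainty.

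*Atf3* (ENSMUSG00000026628, chr1:191170296-191218039) encodes a stress-induced repressor of the ATF family. It was listed at 288, 91.0 and 123 in KOb/c and 288, 130 and 169 in WT replicates 1, 2 and 3. Replicate 1 was again the highest library of each genotype, 3.16 times KOb/c replicate 2. The log2 fold change was -0.32 (95% confidence interval -1.28 to 0.64, adjusted p = 0.690 by limma). *Egr1* (ENSMUSG00000038418, chr18:34859823-34864984), the zinc finger factor, was listed at 732, 608 and 1777 in KOb/c and 519, 625 and 1818 in WT replicates 1, 2 and 3. Here replicate 3 of each genotype stood high, and the remaining 4 libraries lay between 519 and 732. The log2 fold change was 0.14 (95% confidence interval -1.01 to 1.29, adjusted p = 0.899 by limma).

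*Nr4a1* (ENSMUSG00000023034, chr15:101254269-101274795) encodes the nuclear receptor also called NUR77. It was listed at 2327, 232 and 780 in KOb/c and 549, 300.4 and 971 in WT replicates 1, 2 and 3, the widest range of the 10 genes, with KOb/c replicate 1 10.1 times KOb/c replicate 2. Both ends of this range were libraries labelled KOb/c, and the low end is the one with *Slc4a4* at the WT level. The log2 fold change was 0.46 (95% confidence interval -1.21 to 2.14, adjusted p = 0.745 by limma) and 0.87 by DESeq2 (adjusted p = 0.581). It was -0.35 without KOb/c replicate 1 and 1.31 without KOb/c replicate 2 (adjusted p = 0.791 and 0.220 by limma), so 1 library decided its direction.

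*Dusp1* (ENSMUSG00000024190, chr17:26505590-26562128), the MAP kinase phosphatase, was listed at 5263, 2613 and 4715 in KOb/c and 3603, 2567 and 5089 in WT replicates 1, 2 and 3. Replicate 2 was the lowest library of each genotype, and the log2 fold change was 0.15 (95% confidence interval -0.51 to 0.82, adjusted p = 0.792 by limma). *Dusp1* is also induced through the glucocorticoid receptor, and all 11 genes of a list of that receptor's targets, *Dusp1* among them, had a fitted value higher in KOb/c, as did 49.2% of all genes. Of these 11, 0 passed by limma (0% of all genes). By limma 2 of the 11 had an unadjusted p under 0.05, against 23.5% of all genes. These were *Zbtb16* and *Klf9*, both transcription factors, with adjusted p = 0.127 and 0.114 by limma. DESeq2 passed 1 of the 11, *Klf9* (adjusted p = 0.00891), against 9.91% of all genes. Without KOb/c replicate 1, 6 of the 11 were higher and the median log2 fold change was 0.022 in place of 0.34. Without KOb/c replicate 2, all 11 were higher (7868 of 15967 genes) and the median was 0.56. In that fit 6 of the 11 had an unadjusted p under 0.05 by limma, as did 3332 of 15967 genes. The pair of lowest libraries was replicate 2 of KOb/c and of WT for 7 of these 11 genes, *Dusp1* and *Per1* among them, against 6.08% of all genes. Of the 11, 6 were in the highest 10% of genes by their spread within genotype. *Ier2* (ENSMUSG00000053560, chr8:84661331-84662852), which encodes a small nuclear protein, was listed at 932, 728 and 1058 in KOb/c and 1205, 770 and 1280 in WT replicates 1, 2 and 3. Its log2 fold change was -0.24 (95% confidence interval -0.70 to 0.22, adjusted p = 0.506 by limma). *Ier3* (ENSMUSG00000003541, chr17:35821684-35822923), a regulator of cell survival, was listed at 1500, 729 and 971 in KOb/c and 1785, 795 and 1242 in WT replicates 1, 2 and 3. It followed the order of *Jun* and *Atf3*, with replicate 1 highest and replicate 2 lowest in each genotype, and its log2 fold change was -0.24 (95% confidence interval -0.96 to 0.47, adjusted p = 0.684 by limma).

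**Figure D2:**
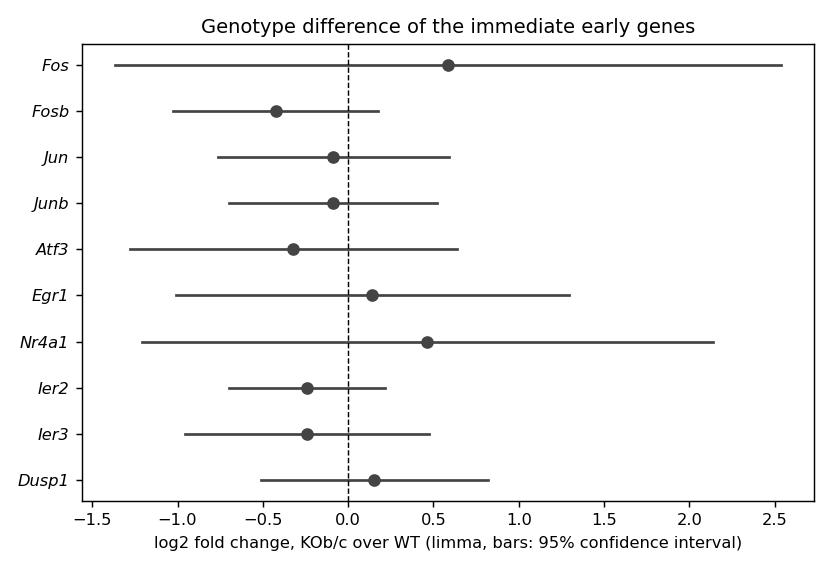
Log2 fold change of KOb/c over WT (horizontal axis) for the 10 immediate early genes, as points with bars for the 95% confidence interval from limma (3 mice per group); the dashed line is 0. Each of the 10 bars crosses 0, and that of Fos is the longest, from -1.36 to 2.54.

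With 1 library left out at a time, 0 of the 10 genes passed the adjusted threshold in any of the 6 fits, but 7 of them, *Nr4a1*, *Dusp1*, *Jun*, *Junb*, *Atf3*, *Egr1* and *Ier3*, took the other sign in at least 1 fit. *Fos* stayed higher in KOb/c, between 0.07 and 1.56, and *Fosb* and *Ier2* stayed lower, at -0.57 to -0.28 and -0.47 to -0.09 on the log2 scale. Without the library labelled KOb/c replicate 2, the median log2 fold change of the 10 genes was 0.17, with 7 higher and 3 lower in KOb/c. Without KOb/c replicate 1 it was -0.31, with 2 higher and 8 lower. At an unadjusted p under 0.05, limma gave 1 of the 10 in each of the fits without KOb/c replicate 1, KOb/c replicate 2 and WT replicate 2. In the same order, these fits gave 2623 of 15970, 3332 of 15967 and 3496 of 15951 genes. The remaining fits gave 0 of the 10.

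The immediate early genes spread widely between mice of the same genotype. The standard deviation of log2(normalized count + 1) within genotype was above that of 90% of all tested genes for 8 of the 10 genes, where 10% of genes lie there by construction. It was 1.54 for *Fos* and 1.32 for *Nr4a1*, at the 99.7th and 99.4th percentile, against a median of 0.142 over all genes. *Egr1* (98.3rd percentile) and *Atf3* (96.8th) followed, and *Ier2* (82.5th) and *Fosb* (74.1st) were the steadiest. Counting error was a small part of this spread for *Fos* and *Nr4a1*, at 10.1% and 6.68% of the count in their lowest libraries, next to a 10.1-fold range for *Nr4a1* and an 8.0-fold range for *Fos*. Of the variance over the 6 libraries, the share that lay between the genotypes was 0.905% for *Egr1* and 50.6% for *Fosb*, with a median of 4.81% over the 10 genes and 30.3% over all genes. No test of the list against other genes was made.

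**Figure D3:**
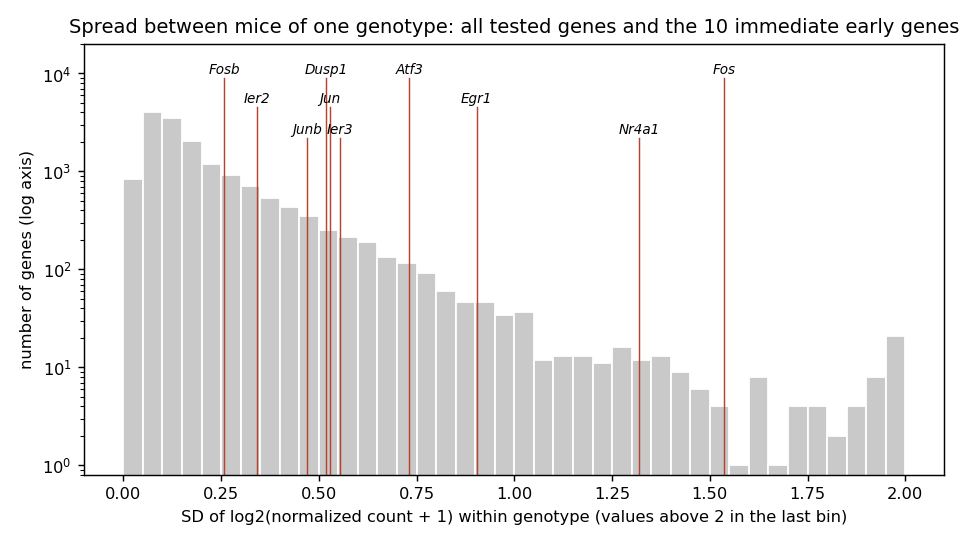
Number of genes (vertical axis, log scale) by the standard deviation of log2(normalized count + 1) within genotype (horizontal axis, in log2 units; values above 2 are in the last bin) for all 16016 tested genes, with a red line at each of the 10 immediate early genes. Fos and Nr4a1 lie far to the right, at 1.54 and 1.32, and 8 of the 10 lie in the highest 10% of genes.

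The same libraries were low for most of the genes. Averaged over the 10 genes, the log2 deviation from the gene's mean was 0.51, -0.73 and 0.21 in KOb/c and 0.01, -0.54 and 0.54 in WT replicates 1, 2 and 3. KOb/c replicate 2 was below the mean for all 10 genes, and WT replicate 3 was above it for all 10. The pair of lowest libraries was KOb/c replicate 2 and WT replicate 2 for 7 of the 10 genes, *Fos*, *Jun*, *Junb*, *Ier2*, *Ier3*, *Nr4a1* and *Dusp1*, against 6.08% of all tested genes, a count that was made after the values had been seen. Genes of 1 library share its RNA, so the 7 are not independent of each other. *Slc4a4* was listed at 944.8 in KOb/c replicate 2, against its label, and at 675.1, 822.2 and 788.8 in WT replicates 1, 2 and 3. The part of the *Slc4a4* level in the result was not tested. The share of reads on mitochondrial genes was 19.1% in KOb/c replicate 2 and 18.1% in WT replicate 2. It was 18.4% to 20.9% in the other 4 libraries, and its part in the result was not tested.

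The high libraries split the genes in more than one way. *Atf3*, *Jun* and *Ier3* were highest in replicate 1 of both genotypes, while *Fos*, *Junb* and *Egr1* were highest in replicate 3 of both. *Nr4a1* and *Dusp1* were highest in KOb/c replicate 1 and WT replicate 3, and *Fosb* and *Ier2* in WT replicates 1 and 3. On a distance between profiles that were scaled to the same spread, where 0 means the same shape and 2 a mirror image, *Jun* and *Ier3* were nearest at 0.193, and *Jun* and *Atf3* lay at 0.263. *Egr1* lay farthest from this trio, at 1.56 from *Atf3* and 1.47 from *Jun*. *Jun* and *Fos* also differed in WT replicate 1. There the log2 deviation from the gene's mean was -1.20 for *Fos*, at 113 normalized counts, and 0.54 for *Jun*, at 4580. These are RNA values and say nothing of the dimer of their proteins. The replicate numbers name the mice within each genotype and do not mark a shared litter or day in the labels. Atrial marker genes had their lowest sums in KOb/c replicate 1 and WT replicate 1, the libraries where *Atf3*, *Jun* and *Ier3* were highest. Adipocyte marker genes (3 measured) were lowest in KOb/c replicate 1, at 64.5 against 720 to 2081 in the other libraries, and erythroid marker genes ran from 25324 to 113917. The part of these cells in the result was not tested.

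**Figure D4:**
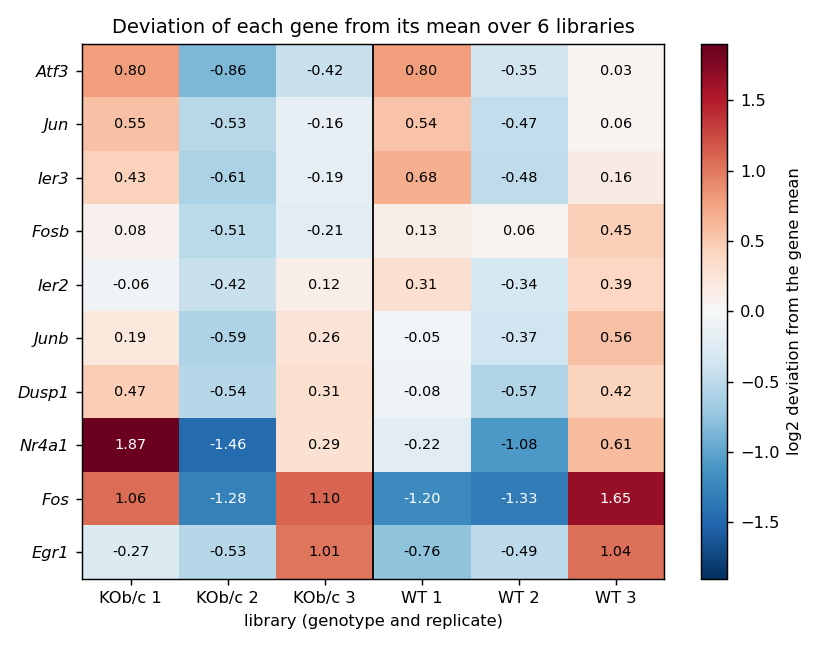
Log2 deviation of each immediate early gene (rows) from its own mean over the 6 libraries (columns: KOb/c left of the line, WT right of it), with red above and blue below the mean and the value printed in each cell. The KOb/c replicate 2 column is below 0 for all 10 genes and the WT replicate 3 column above 0 for all 10.

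Levels were compared between genes per kilobase of annotated exon, averaged over the 6 libraries. *Dusp1* stood at 1200.5 normalized counts per kilobase, *Ier3* at 1035 and *Jun* at 1030, followed by *Ier2* at 654 and *Junb* at 521. *Nr4a1* at 245, *Egr1* at 226 and *Fos* at 159 came next, and *Atf3* was at 84.3 and *Fosb* at 4.90. Each gene's range over the libraries overlapped that of the next gene in this order, except that *Fosb* lay below *Atf3* in every library. *Jun* in its lowest library lay above *Fos* in its highest on this scale: *Jun* was at 1004 ± 394 in KOb/c and 1057 ± 364 in WT, and *Fos* at 172 ± 110 and 147 ± 176 (SD, n = 3 per group).

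Most of the 10 genes had a compact structure, which the rule for finding them did not use. In GENCODE M21 (GRCm38), the median span was 4698.5 bases against 21039 over all tested genes, with a median of 2.5 exons against 7 in the longest transcript. *Jun*, *Junb* and *Ier2* had a single exon, and the annotated spans of *Dusp1* and *Atf3*, at 56539 and 47744 bases, were the exceptions. A span takes in every annotated transcript of a gene. The RefSeq starts of *Dusp1* and *Atf3* lie well inside these spans, so the part from that start on is shorter. The median GC content of the longest transcript was 55.8% against 49.8%. The pentamer ATTTA, the core of AU-rich elements, was found in the 3′ untranslated region of 9 of the 10 genes, all but *Ier2*, and of 70.5% of genes with such a region. Per kilobase of that region, its median number was 3.68 in the 10 genes and 1.203 over all genes. *Ier3* held 5 copies, and *Fos*, *Jun* and *Dusp1* held 4 each. The longer element TTATTTATT was found once in *Fos* and in 2 copies in *Dusp1*, and in 8.09% of all genes.

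A wider list of immediate early genes had 38 of its 40 members in the table. By limma and by DESeq2 0 of the 38 passed, but DESeq2 with its defaults gave no adjusted p for the scarcest of them. Without independent filtering or outlier removal, DESeq2 again passed 0 of the 38. By limma 3 had an unadjusted p under 0.05, with 1 higher and 2 lower in KOb/c, against 23.5% of all genes. Their number was 1 without WT replicate 1 (2452 of 15961 genes). It was 5 without KOb/c replicate 2 (3332 of 15967) or WT replicate 2 (3496 of 15951). The groups did not overlap for 3 of the 38, against 30.2% of all genes. KOb/c was above WT for 1 and below for 2. The 3 were *Gadd45g*, a DNA damage-inducible gene, at -0.30, *Ier5l* at -0.29 and *Klf10*, a TGF-β-induced repressor, at 0.21 on the log2 scale. Their adjusted p by limma was 0.158, 0.213 and 0.166. *Gadd45g* was at -0.12 with length and GC content corrected for. The median log2 fold change was 0.03. The spread within genotype lay in the highest 10% of genes for 15 of the 38. The pair of lowest libraries was KOb/c replicate 2 and WT replicate 2 for 14 of the 38, against 6.08% of all genes. *Per1*, a clock gene that CREB induces, was chosen after its values were seen as the one with the widest spread, and was listed at 3769, 599 and 1313 in KOb/c and 1560, 514 and 1042 in WT replicates 1, 2 and 3. The 14 genes, *Per1* among them, shared the pair of lowest libraries that 7 of the 10 immediate early genes had.

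Of 12 other AP-1 and ATF subunits, 0 passed by limma and 1, *Atf7*, passed by DESeq2 (6.15% of all genes passed with a higher value in KOb/c). DESeq2 with its defaults gave no adjusted p for the scarcest of the 12, *Batf* among them. *Atf7*, a relative of ATF2, was listed at 1871 ± 86.2 in KOb/c and 1516 ± 53.6 in WT (SD, n = 3 per group), with a log2 difference of 0.30 (adjusted p = 0.0815 by limma and 0.00928 by DESeq2). *Atf2*, a target of stress-activated kinases, had a log2 fold change of 0.18 and *Batf*, an AP-1 partner of lymphocytes, -0.57 (adjusted p = 0.183 and 0.271 by limma). The groups of *Atf7*, *Atf2* and *Batf* did not overlap, 3 of the 12 against 30.2% of all genes. Replicate 2 of KOb/c and of WT were the pair of lowest libraries for 1 of the 12, *Maff*, against 6.08% of all genes. With length and GC content corrected for, *Atf7* was at 0.096 (adjusted p = 0.503 by limma).

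The kinases and activators that act before the immediate early genes, 27 in number, were steadier between mice. Their median standard deviation within genotype was 0.106, below the 0.142 of all genes. By limma 0 of the 27 passed, with 13 at an unadjusted p under 0.05, of which 12 were higher in KOb/c (13% of all genes were higher at that threshold). Of the 27, 7 had an unadjusted p under 0.05 by limma without KOb/c replicate 1 (2623 of 15970 genes). Without WT replicate 1 it was 6 (2452 of 15961 genes). DESeq2 passed 5, all higher in KOb/c (6.15% of all genes). The groups did not overlap for 17 of the 27, with KOb/c above WT for 15 and below for 2, against 15.6% and 14.6% of all genes. *Rps6ka5*, the kinase MSK1 that phosphorylates CREB and histone H3, had a log2 fold change of 0.51, the acetyltransferase *Ep300* 0.49 and the kinase *Rps6ka2* 0.46 (adjusted p = 0.0893, 0.0870 and 0.0861 by limma, and 0.00680, 0.00420 and 0.00605 by DESeq2). With transcript length and GC content corrected for, 15 of the 27 were higher (7862 of 16016 genes). In that fit 7 of the 27 had an unadjusted p under 0.05 by limma, as did 2580 of 16016 genes. The median log2 fold change was then 0.048 in place of 0.155, with 0.24 for *Ep300*.

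Of 12 genes of promoter-proximal pausing, the step at which RNA polymerase II waits at many immediate early genes, 0 passed by limma and 5 had an unadjusted p under 0.05 (23.5% of all genes), or 2 without KOb/c replicate 1 or without KOb/c replicate 2, and 3 without any 1 of the WT replicates. The elongation factor *Supt5* had a log2 fold change of 0.24 and the kinase *Cdk9* -0.24 (adjusted p = 0.109 and 0.141 by limma, and 0.0473 and 0.0976 by DESeq2 with its defaults). Of 12 genes of AU-rich mRNA decay and stabilization, 0 passed by limma and 5 had an unadjusted p under 0.05, all higher in KOb/c (13% of all genes), or 2 without KOb/c replicate 1 or without WT replicate 1. *Cnot1*, the scaffold of the deadenylase complex, had a log2 fold change of 0.35, *Zfp36l1*, which binds AU-rich elements, 0.33, and the exonuclease *Xrn1* 0.32 (adjusted p = 0.0815, 0.0815 and 0.150 by limma). DESeq2 passed 2 of the 12, *Cnot1* and *Zfp36l1* (adjusted p = 0.00139 and 0.00920), where 6.15% of all genes passed with a higher value in KOb/c. After the correction for length and GC content, 7 of these 12 were higher, with 0.12 for *Cnot1* and 0.077 for *Xrn1*. Of 10 heat shock genes, induced by other stresses, 0 passed by limma and 5 had an unadjusted p under 0.05, with 4 lower (10.5% of all genes were lower at that threshold). Their number was 1 without WT replicate 1, 2 without KOb/c replicate 3 and 3 without each of the other libraries. Over all genes, the limma fits with 1 library left out gave 2452 to 3600 genes at that threshold. The co-chaperone *Dnaja1* had a log2 fold change of -0.42 and the chaperone *Hspa8* -0.19 (adjusted p = 0.121 and 0.166 by limma). DESeq2 passed 1 of the 10, *Dnaja1* (adjusted p = 0.0157), against 9.91% of all genes.

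**Figure D5:**
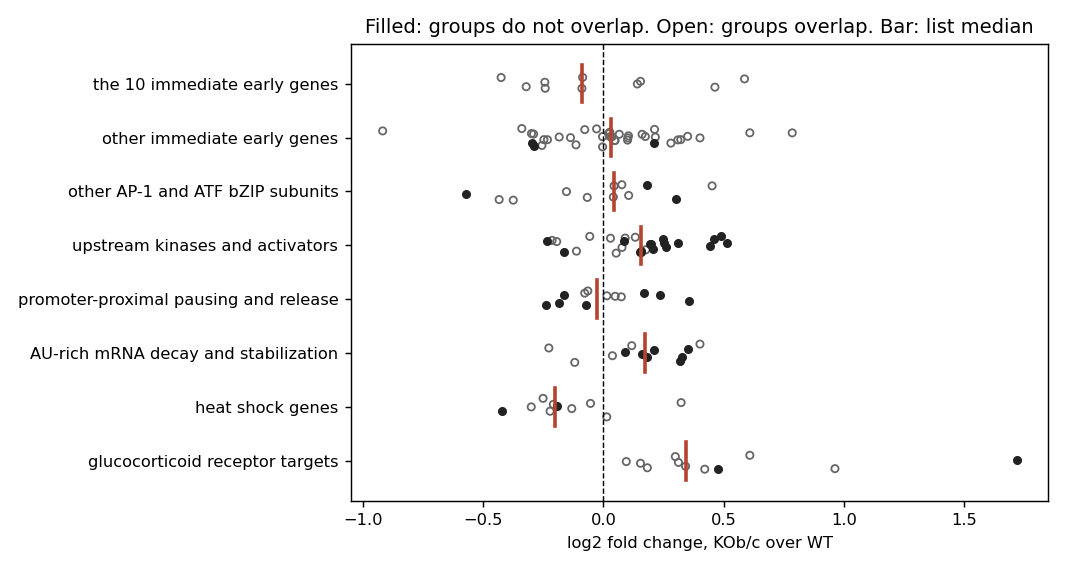
Log2 fold change of KOb/c over WT (horizontal axis) for the genes of each list (rows); filled points are genes whose 3 KOb/c and 3 WT libraries do not overlap, open points genes whose groups overlap, red bars list medians, and the vertical place within a row is arbitrary. All 10 immediate early genes are open points, whereas 17 of the 27 upstream kinases and activators are filled.

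Outside all lists, the genes whose profile over the 6 libraries was nearest to the mean profile of the 10 immediate early genes were *Mex3b* at a distance of 0.158, *Ccdc77* at 0.201, *Dpysl4* at 0.233, *Sccpdh* at 0.242, *Syap1* at 0.255 and *Schip1* at 0.278. They came from 11783 genes whose mean reached 100 normalized counts, and whose median distance was 1.40. *Mex3b*, which encodes an RNA-binding protein, was listed at 228, 153 and 216 in KOb/c and 205, 167 and 251 in WT replicates 1, 2 and 3. It was lowest in replicate 2 of both genotypes, with a narrower range than *Fos* or *Nr4a1*. Of the 10 genes themselves, *Junb* lay nearest to their mean profile at 0.344, followed by *Dusp1* at 0.352, and *Egr1* lay farthest at 0.983. With 6 libraries, a near profile is a description of these hearts.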

How the data were processed

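Total RNA from 6 hearts went to a company for Illumina HiSeq sequencing of both fragment ends. The authors deposited 1 table of a normalized signal for each gene, which is the read count divided by a scaling factor for the library. The submitters' processing notes name Trimmomatic 0.36, STAR 2.5.2b, featureCounts, Subread 1.5.2, DESeq2 and GRCm38, with no settings for strand or for shared reads. In each library, 100% of the values were whole multiples of 1 read within 0.01 reads, so that reads were recovered, 41364857 to 49100802 for each library. Of the 96108 values, 11 were 0.

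The labels gave each library's genotype and replicate number, and no column was left unmatched. Symbols (15980 of 16018 genes) and positions came from GENCODE M21, and promoters from RefSeq (GRCm38.p6). The genotypes were compared on log2(normalized count + 1) by limma 3.58.1 in R 4.3.3, fitting a trend of the variance, two-sided, over genes with a mean of at least 10, and p-values were adjusted by Benjamini-Hochberg and held against 0.05. Fold changes are on this scale, which understates the change of low genes. The recovered reads were also tested with edgeR 4.0.16 (quasi-likelihood) and DESeq2 1.42.0. The procedures were tested on simulated data. The alternatives also took in pseudocounts of 0.5 and 5, a minimum mean of 50 or none, quantile normalization, scaling to the same total, a constant prior variance, splines in transcript length and GC content (5 degrees of freedom) subtracted from each library, the replicate number as a block, and each library left out. The intervals and counting errors are at a level of 95% and of 1 standard deviation.

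The genes named are the 10 immediate early genes, *Slc4a4*, the genes of each other list past the adjusted threshold or, where there are none, the 3 with the largest difference among those whose groups did not overlap, and the 6 genes with the nearest profile. The members and lists were chosen with earlier results of these data known. Of the lists, *Egr4*, *Il6*, *Cd3e* and *Lep* were not analysed here. A further gene that the rule names is not reported here.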

Additional observations from a re-analysis of the deposited data

How the results depend on the processing

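The count of immediate early genes past the adjusted threshold was 0 in all 20 alternative settings. Their direction was less steady. Leaving out 1 library at a time, log2 fold changes ran from -0.35 to 1.31 for *Nr4a1*, from -0.092 to 0.46 for *Dusp1*, from -0.38 to 0.16 for *Jun*, from -0.30 to 0.18 for *Junb*, from -0.80 to 0.027 for *Atf3*, from -0.33 to 0.70 for *Egr1* and from -0.54 to 0.038 for *Ier3*, so each of these 7 changed sign. *Junb* was also at 0.031 after the correction for length and GC content. *Fosb* gave no value at a mean of at least 50, which it does not reach. Over all genes, DESeq2 gave 1587 calls with its defaults and 1405 without independent filtering or outlier removal, and 12 and 11 in the other lists. Leaving out a library gave limma 0 to 3 calls, with 3 without KOb/c replicate 2, where *Slc4a4* was at -1.51 (adjusted p = 0.0121), within -1.51 to -0.59. Of the 6 genes of nearest profile, 3 were shared with those found at a mean of at least 500, which 3 of the 6 do not reach.

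The labels do not say whether the replicate numbers 1 to 3 pair the mice. The deviations of same-numbered libraries from their group means correlated at 0.227, 0.072 and -0.029 over genes. These values cannot decide whether the mice were paired, since a shared litter or day need not leave a high correlation. With the replicate block, limma gave 0 genes past the adjusted threshold and 3924 at an unadjusted p under 0.05, among them 2 of the 10, *Ier2* and *Ier3* (adjusted p = 0.154 and 0.135). The intervals given for each gene show how far 3 mice for each genotype limit the precision.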

Other observations

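Marker genes of cell types other than cardiomyocytes also varied between hearts. The 4 neutrophil marker genes summed to 116, 201 and 506 normalized counts in KOb/c replicates 1, 2 and 3 and to 219, 440 and 202 in WT replicates 1, 2 and 3. The 3 lymphocyte marker genes in the table summed to 108 to 192 in KOb/c and 122 to 344 in WT hearts. The 4 smooth muscle marker genes summed to 20191 to 23691 in KOb/c and 14875 to 27491 in WT hearts. The 4 macrophage marker genes were steadier, at 4083 to 4232 in KOb/c and 3597 to 4009 in WT hearts. Endothelial marker genes summed to 35095 to 37921 in KOb/c and 32247 to 34335 in WT hearts, and fibroblast marker genes to 37809 to 43333 and 36100 to 41076. Of these 6 lists, the macrophage list had its lowest sum within each genotype in replicate 2. Its sum in KOb/c replicate 2, 4083, lay above that of every WT library, the highest of which was 4009. All 10 immediate early genes were below their mean in KOb/c replicate 2, but a deviation from a gene's mean is another measure than a sum of markers. The part of these cells in the result was not tested.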
